A study of Mus musculus with 6 samples.

Results

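The 6 genes described here make, carry or use creatine in the mouse: the mitochondrial creatine kinases Ckmt1 and Ckmt2, the cytosolic creatine kinases Ckb and Ckm, the synthesis enzyme gene Gatm and the creatine transporter gene Slc6a8. They were found by gene symbol among the 46072 genes of each library, and all 6 were present. They were chosen by their counts in this same comparison, in which Ckmt1 showed one of the largest decreases, so their levels and fold changes between the groups are a description. No p-value is given for them, and test calls that include them are counted only beside the share of all genes called. RNA was measured in mouse embryos at the 4-cell stage, in 3 Son siRNA libraries from embryos microinjected as zygotes with siRNA against Son, and in 3 control libraries. Son encodes a nuclear speckle protein that acts in pre-mRNA splicing, and the series asked what its loss does to early development. The labels call the controls only "control". They name no strain, injected control, number of embryos or litter per library, so any p-value measures the spread between these libraries, which may be technical.

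Creatine kinases pass a phosphate group between ATP and creatine, which lets cells store and move high-energy phosphate. The mitochondrial enzymes sit in the intermembrane space, close to where ATP leaves the matrix, and the cytosolic enzymes use phosphocreatine to rebuild ATP where it is spent. Creatine is made in steps: Gatm forms guanidinoacetate from arginine and glycine, Gamt methylates it with S-adenosylmethionine, and Slc6a8 brings ready-made creatine into the cell. Ckb is known as the brain form, Ckm as the muscle form, Ckmt1 as the ubiquitous and Ckmt2 as the sarcomeric mitochondrial form.

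The 4 kinases are paralogs, so their sequences are shown first where they are most alike, since this bears on whether reads can be told apart. In an alignment of their coding sequences, the 60-base stretch with the most shared positions had 44 positions identical in all 4 genes. Capitals mark, for Ckmt1, positions where any other kinase differs, and for the other kinases, bases that differ from Ckmt1; positions are counted from 1 at the first base of the start codon, and the sequences are those of GENCODE vM21 transcripts.
Ckmt1 (bases 270 to 329): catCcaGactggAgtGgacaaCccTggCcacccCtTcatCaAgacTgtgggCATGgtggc
Ckmt2 (bases 270 to 329): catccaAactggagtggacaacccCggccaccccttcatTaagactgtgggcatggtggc
Ckb (bases 168 to 227): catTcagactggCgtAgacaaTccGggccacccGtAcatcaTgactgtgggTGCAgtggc
Ckm (bases 168 to 227): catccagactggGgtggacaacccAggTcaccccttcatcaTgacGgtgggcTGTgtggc
Within this stretch Ckmt2 differed from Ckmt1 at 3 positions, Ckm at 8 and Ckb at 12. Over the whole coding sequence Ckmt1 was identical to Ckmt2 at 71.1% of aligned bases, to Ckb at 64.6% and to Ckm at 64.2%, and Ckb and Ckm were identical at 75.9%. The longest unbroken stretch shared by any pair of their longest coding transcripts was 39 bases, between Ckmt1 and Ckmt2, and no stretch of 100 bases of Ckmt1, Ckmt2, Gatm or Slc6a8 occurred in a transcript of another gene. Of the 100-base stretches of Ckb, 11% also occurred in the predicted gene Gm12892, which had 0.182, 0.401 and 0.219 CPM after siRNA against 0.77, 1.55 and 0.249 CPM in controls. Of those of Ckm, 6.24% occurred in the overlapping gene A930016O22Rik, at 0 in 5 of the 6 libraries, and 15.48% of Ckm exonic bases lay in it. The exonic overlap of Ckmt1 was 10 bases with Strc, and Smart-Seq2 reads carry no strand.

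Son itself had 41, 28.0 and 25.1 CPM in the siRNA libraries, against 249, 322 and 332 CPM in controls, which left 10.4% of the control level (CPM are counts scaled to a common library size with TMM factors). Total counts ranged from 104634855 to 114892490 units in siRNA libraries and from 107996833 to 118865650 units in controls. All 8 markers of oocytes and cleavage embryos were detected, at a sum of 732 to 1090 CPM after siRNA and 515 to 1150 CPM in controls. Of 8 cumulus markers 3 were at 0 throughout, Foxl2, Fshr and Inha, with sums of 0.107 to 0.316 CPM after siRNA and 0 to 0.872 CPM in controls. Of 6 sperm markers Tnp2 and Odf1 were at 0, with sums of 0.151 to 0.905 CPM after siRNA and 0.194 to 1.14 CPM in controls. Of 6 blood markers Hbb-bs, Hbb-bt and Ptprc were at 0. The sums, which came from Hba-a1, Hba-a2 and Alas2, were 9.74 to 11 CPM after siRNA and 6.02 to 12.1 CPM in controls. The 8 muscle markers, listed because of Ckm and Ckmt2, summed to 17.7 to 27.7 CPM after siRNA and 47.6 to 128 CPM in controls, with Myh4 and Tnnt3 at 0. Nearly all of that sum was Mylpf, a myosin light chain gene, with 14.8, 26.3 and 16.7 CPM after siRNA against 123, 45.1 and 65.6 CPM in controls. It was lower where Ckmt1, Ckb and Slc6a8 were, and its part in those results was not tested.

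Ckmt1 RNA was nearly gone after Son siRNA. Ckmt1 (ENSMUSG00000000308, chromosome 2, 121357714 to 121363737, plus strand of GRCm38) had 0.487, 1.3 and 1.27 CPM in siRNA libraries 1 to 3, against 31.1, 25.2 and 16.5 CPM in controls 1 to 3. The highest siRNA library lay far below the lowest control. The means were 1.02 ± 0.46 CPM after siRNA and 24.3 ± 7.34 CPM in controls (SD, n = 3 each), so 4.19% of the control level was left, a log2 fold change of -4.57 (SE 0.501). Of 17788 genes tested, 0.287% had a log2 fold change as low as that or lower.

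Ckb, which encodes the brain-type cytosolic kinase, was lower in every siRNA library than in any control, with a wide spread among controls. Ckb (ENSMUSG00000001270, chromosome 12, 111669361 to 111672338, minus strand) had 7.39, 10.8 and 7.28 CPM after siRNA, against 26.7, 70.1 and 16.2 CPM in controls. Control 2 stood well above the other controls; it also had the lowest share of mitochondrial counts, 9.79%, against 13.2% to 17.5% in the siRNA libraries and 15.3% and 16% in controls 1 and 3, and the part of that in its Ckb level was not tested. The means were 8.48 ± 1.98 CPM after siRNA and 37.7 ± 28.6 CPM in controls, a log2 fold change of -2.15 (SE 0.522). Without control 2 it was -1.34, and 2.57% of tested genes were as low as -2.15 or lower.

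Ckm, the muscle-type kinase, did not separate the groups. Ckm (ENSMUSG00000030399, chromosome 7, 19404776 to 19422841, plus strand) had 1.90, 2.22 and 0.279 CPM after siRNA, against 2.27, 1.15 and 0.291 CPM in controls. Each group held 1 library near 0.3 CPM, the third of each, and the ranges overlapped almost fully. The log2 fold change was 0.24 (SE 0.92), a standard error that leaves room for sizeable differences in either direction, and it was 1.02 without control 1, -0.22 without control 3 and -0.20 without siRNA library 2. Ckmt2, the sarcomeric mitochondrial kinase (ENSMUSG00000021622, chromosome 13, 91853387 to 91876885, minus strand), was listed at 0 in all 6 libraries. If 4 count units are taken as 1 read pair, a floor of 3 read pairs allows up to 0.0906 to 0.103 CPM in the siRNA libraries and 0.106 to 0.125 CPM in the controls.

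Slc6a8, the creatine importer gene on the X chromosome, was also lower in each siRNA library than in any control. Slc6a8 (ENSMUSG00000019558, chromosome X, 73673150 to 73682502, plus strand) had 5.48, 3.48 and 6.81 CPM after siRNA, against 21.6, 16.2 and 8.77 CPM in controls. The highest siRNA library, library 3, lay close to the lowest control, control 3. The means were 5.25 ± 1.68 CPM after siRNA and 15.5 ± 6.42 CPM in controls, a log2 fold change of -1.56 (SE 0.428), as low or lower for 5.5% of tested genes. The 775 tested X-linked genes and the 16815 tested autosomal genes both had a median log2 fold change of 0.02. Xist, the RNA of the inactive X chromosome, had 64.1, 18.2 and 35.3 CPM after siRNA against 203, 80 and 24.3 CPM in controls. Summed over 4 Y-linked genes, the siRNA libraries had 36.5, 80.8 and 28 CPM and the controls 69.1, 48.7 and 78.4 CPM, so every library held both Xist and Y-linked RNA. The part of embryo sex in the Slc6a8 values was not tested.

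RNA for creatine synthesis was at or near the counting floor for Gatm and low for Gamt. Gatm, the first enzyme of the route (ENSMUSG00000027199, chromosome 2, 122594467 to 122611303, minus strand), had 36, 5 and 0 count units after siRNA, against 0, 24 and 0 units in controls. Only 1 library of each group lay above the floor of 12 units, so no fold change is given. Gamt, the methylating enzyme of the next step, had 1.04, 0.905 and 0.446 CPM after siRNA and 0.0728, 0.696 and 0.363 CPM in controls, a log2 difference of 1.07 with SE 0.983 (adjusted p = 0.69 by edgeR). Control 1 held 7 units of Gamt, under the floor of 12, and the difference was 0.59 without control 1 and 1.87 without control 2.

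**Figure D1:**
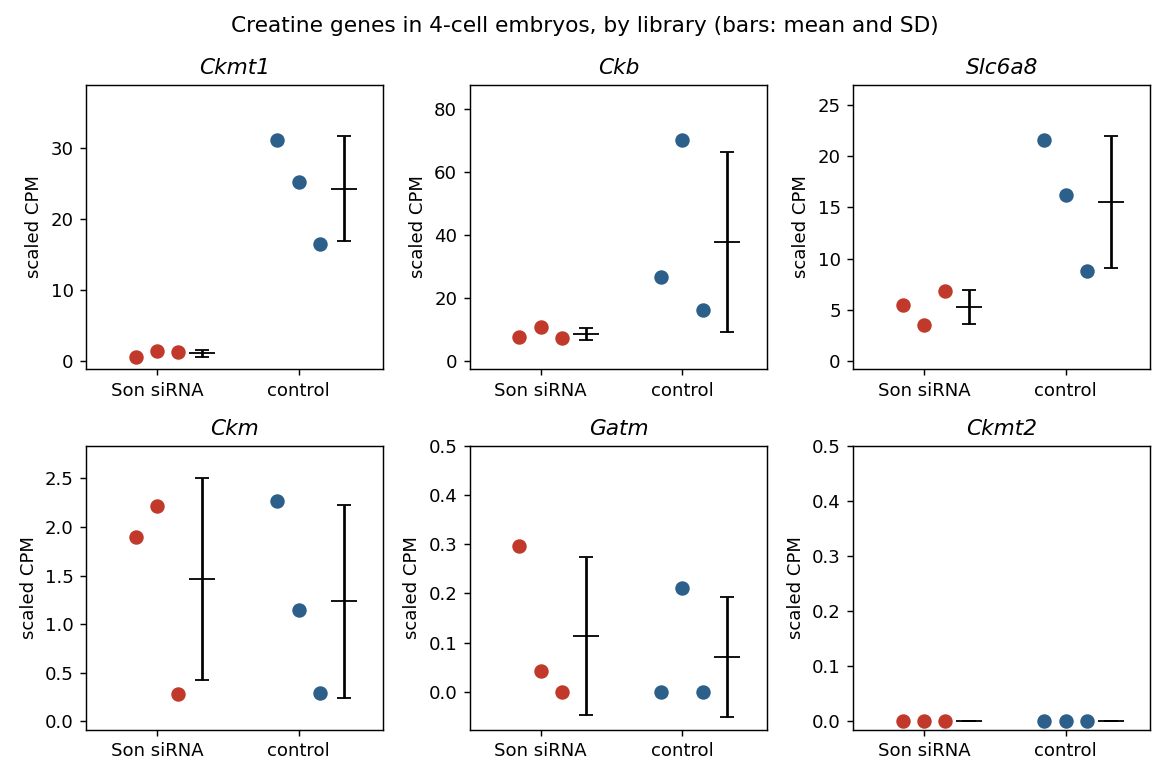
Scaled CPM (y axis) of the 6 creatine genes in each of 3 Son siRNA libraries (red) and 3 control libraries (blue), 1 panel per gene with its own scale; black bars are the mean and SD. Ckmt1, Ckb and Slc6a8 lie lower in each siRNA library than in any control, Ckm and Gatm overlap, and Ckmt2 is at 0 throughout.

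The filter on low counts kept 4 of the 6 genes, Ckmt1, Ckb, Ckm and Slc6a8, and removed Ckmt2 and Gatm. By edgeR's quasi-likelihood test across all genes at an adjusted p under 0.05, Ckmt1 was the 1 gene of these 4 called lower, beside 0.899% of all tested genes, and 0 were called higher, beside 0.0899%. DESeq2 called 3 lower, Ckmt1, Ckb and Slc6a8, beside 4.63% of all tested genes, and 0 higher, beside 2.28%. With total counts in place of TMM the log2 fold changes were -4.31 for Ckmt1, -1.97 for Ckb and -1.26 for Slc6a8. Groups did not overlap in the lower direction for 3 of the 4, against 11.6% of tested genes. The genes were chosen from this comparison, so these calls and counts, with or without a library, are no evidence about them. Without controls 1, 2 and 3 the Ckmt1 log2 fold changes were -4.35, -4.54 and -4.78, and edgeR's call for it was there each time. Without siRNA library 1, 2 or 3 they were -4.24, -4.79 and -4.76, and edgeR then called 0 of all genes, with 1786, 2348 and 1733 at an unadjusted p under 0.05.

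Set against each other per length, Ckb led the creatine kinases after siRNA. In controls Ckb and Ckmt1 both stood high, in an order that depended on the length used and on the library. Levels per kilobase of merged exon in siRNA libraries were 2.93 ± 0.684 CPM per kilobase for Ckb, 1.01 ± 0.322 for Slc6a8, 0.503 ± 0.357 for Ckm and 0.408 ± 0.184 for Ckmt1. In controls the levels per kilobase were 13 ± 9.87 CPM for Ckb, 9.73 ± 2.94 for Ckmt1, 2.98 ± 1.23 for Slc6a8 and 0.425 ± 0.34 for Ckm (SD, n = 3 each). By this length Ckmt1 had the lowest mean of these 4 after siRNA, and the next highest after Ckb in controls. After siRNA Ckb lay above the other 3 in all libraries, and Slc6a8 overlapped Ckm, as did Ckm and Ckmt1. In controls the ranges of Ckb and Ckmt1 overlapped, while Ckmt1 lay above Slc6a8 and Slc6a8 above Ckm in all libraries. Ckmt1 lay above Ckb in control 1 (12.5 against 9.24) and control 3 (6.62 against 5.59). It lay below Ckb in control 2 (10.1 against 24.2). With the longest transcript as length, Ckb had 2.99 CPM per kilobase after siRNA and 13.3 in controls, and Ckmt1 had 0.628 after siRNA and 15 in controls, so that the mean of Ckmt1 was above that of Ckb in controls. With the longest coding transcript, a length chosen after seeing the data, Ckb had 5.76 CPM per kilobase after siRNA and 25.6 in controls, and Ckmt1 was as with the longest transcript. By either of these lengths Ckmt1 had a mean just above that of Ckm (0.535) after siRNA.

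A ratio within a library does not depend on how libraries are scaled. Per kilobase of merged exon, Ckmt1 was 0.0765, 0.14 and 0.202 times the level of Ckb in siRNA libraries 1 to 3, against 1.35, 0.416 and 1.19 times in controls 1 to 3. Each siRNA ratio was below each control ratio, with control 2, the library of high Ckb, nearest to them. Ckmt1 was chosen for its decrease in these same libraries, so the ratios, and the shares and sums that follow, are a description. Ckmt1 made up 5.74%, 10.4% and 16.3% of the summed creatine kinase level after siRNA, against 55.5%, 29.1% and 53.8% in controls. The sum over the 4 kinases was 3.4, 5.0 and 3.12 CPM per kilobase after siRNA, against 22.5, 34.7 and 12.3 in controls. Ckm, whose own level overlapped between the groups, took 12.5% ± 8.39 of the sum after siRNA and 1.8% ± 1.44 in controls (SD, n = 3 each). By library its share was 19.2%, 15.2% and 3.08% after siRNA against 3.46%, 1.14% and 0.811% in controls, so the shares overlapped too. In bulk embryos, fewer cells that carry a transcript and less of it per cell cannot be told apart.

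**Figure D2:**
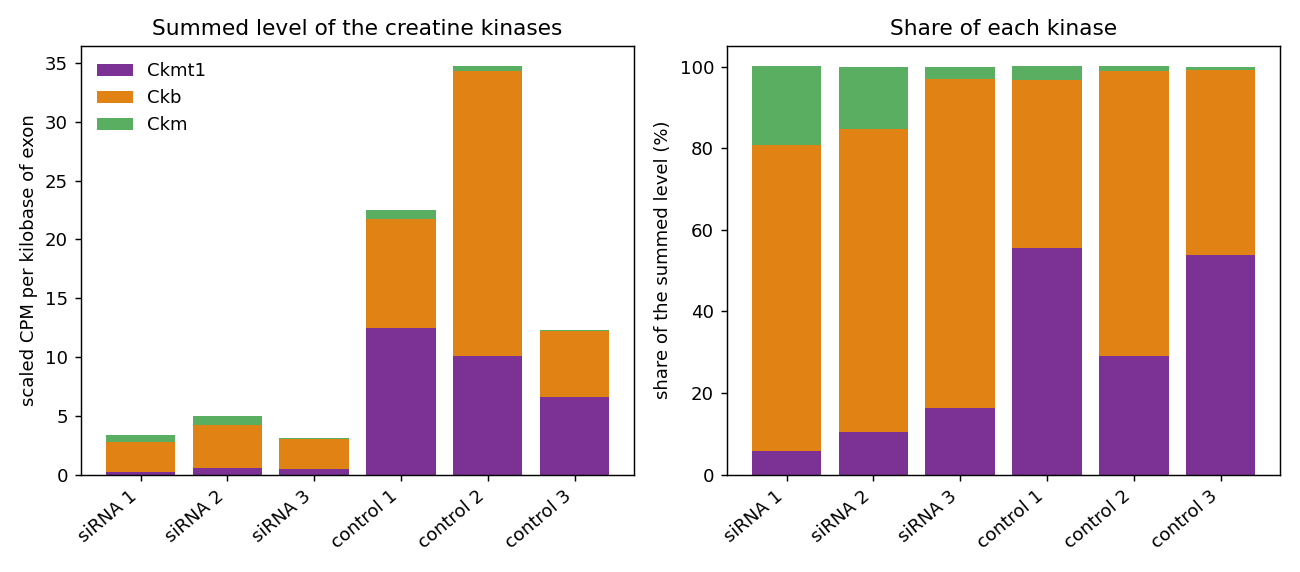
Left, summed creatine kinase level (scaled CPM per kilobase of merged exon, y axis) in 3 Son siRNA and 3 control libraries, split into Ckmt1 (purple), Ckb (orange) and Ckm (green); right, the same as a share of the sum in percent. Ckmt2 is at 0. The sum is 3.12 to 5.0 after siRNA and 12.3 to 34.7 in controls, and the Ckmt1 share is 5.74% to 16.3% after siRNA and 29.1% to 55.5% in controls.

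Ckmt1, Ckb, Slc6a8 and Ckm alike had fewer intron bases and more GC than the median coding gene, features that the choice of genes did not use. The longest coding transcript of Ckb had 8 exons, 1506 intron bases and 60% GC. That of Ckmt1 had 9 exons, 3508 intron bases and 54.9% GC, and that of Slc6a8 13 exons, 5389 intron bases and 56.8% GC. Among 14013 tested coding genes the medians were 9 exons, 18292 intron bases and 49.6% GC, and only 8.4%, 15.9% and 22.4% of those genes had fewer intron bases than Ckb, Ckmt1 and Slc6a8. Ckm, which overlapped between the groups, had 9075 intron bases and 54% GC. Gatm had 14448 intron bases and 43.2% GC, and Ckmt2 had 22013 intron bases, above the median, and 50.5% GC. Over the 3504 coding genes with the fewest intron bases the median log2 fold change was 0.04 and edgeR called 1.17% lower, against 0.03 and 0.971% of the others. Over the 3504 with the highest GC content these values were 0.08 and 1.06%, against 0.02 and 1.01% of the others.

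The start regions of the kinases that were lower are shown because Ckmt1 has more than one annotated start and gene-level counts do not separate them. Below are the 250 bases before each RefSeq start on GRCm38.p6, in the direction of transcription, with capitals for matches on either strand to the TATA box letters TATAAA, the CCAAT box, the GC box letters GGGCGG and the E-box letters CACGTG, none of which overlap here. Of the 6 genes, 5 had an entry in the RefSeq table, and Slc6a8 was not among them.
Ckmt1 upstream start (chr2:121357526-121357775, plus strand): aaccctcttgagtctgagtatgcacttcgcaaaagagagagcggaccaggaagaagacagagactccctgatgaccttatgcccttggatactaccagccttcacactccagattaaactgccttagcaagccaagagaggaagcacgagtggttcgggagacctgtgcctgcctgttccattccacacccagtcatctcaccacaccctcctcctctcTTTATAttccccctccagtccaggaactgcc
Ckmt1 downstream start (chr2:121358360-121358609, plus strand): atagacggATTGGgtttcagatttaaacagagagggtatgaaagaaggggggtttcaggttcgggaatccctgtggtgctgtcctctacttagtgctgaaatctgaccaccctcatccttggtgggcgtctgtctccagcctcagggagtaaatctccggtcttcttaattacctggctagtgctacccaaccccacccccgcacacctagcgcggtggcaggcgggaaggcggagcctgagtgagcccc
Ckb (chr12:111672339-111672588, minus strand): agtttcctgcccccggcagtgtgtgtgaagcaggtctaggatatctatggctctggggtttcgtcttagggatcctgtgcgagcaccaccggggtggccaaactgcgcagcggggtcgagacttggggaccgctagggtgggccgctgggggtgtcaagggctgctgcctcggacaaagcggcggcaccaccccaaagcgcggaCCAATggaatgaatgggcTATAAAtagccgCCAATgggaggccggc
The upstream Ckmt1 window held 1 TATA box match and the downstream window 1 CCAAT match, each on the opposite strand, while Ckb held 1 TATA box and 2 CCAAT matches on its own strand. The GENCODE start of Ckmt1, 121357714, lies inside the upstream window, and the TATA box match lies between it and the RefSeq start. Of 32851 windows of the same length, 12.4% held the TATA box letters, 33.8% the CCAAT box, 32.7% the GC box letters and 6% the E-box letters. CG dinucleotides numbered 4 in the upstream and 9 in the downstream Ckmt1 window and 16 in Ckb, counts reached by 62.2%, 40.3% and 25.4% of windows. A match describes letters in a window and is not a binding site.

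Next to Ckmt1, Ppip5k1, an inositol phosphate kinase gene that starts 2317 bases away on the other strand, had 0.124, 0.427 and 0.393 CPM after siRNA against 3.11, 3.25 and 0.665 CPM in controls. Its log2 fold change was -2.89 (SE 0.827, edgeR adjusted p = 0.141), so it did not pass edgeR's test, although each siRNA library was below each control. DESeq2 called it lower (adjusted p = 0.0104 by DESeq2), beside 4.63% of all tested genes. Strc, which overlaps the other end of Ckmt1, had 0.0991, 0.205 and 0.249 CPM after siRNA against 0.541, 0 and 0 CPM in controls. The neighbours of Ckb, Mark3 and Trmt61a, had log2 fold changes of 0.22 and 0.03, and Bcap31 beside Slc6a8 had -0.42, none past the threshold.

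Among 7352 tested genes at 5 CPM or more in a group, those nearest to Ckmt1 over the 6 libraries were Ubxn11, the carbonyl reductase gene Cbr2, the aminopeptidase gene Anpep and the DNA sensor gene Aim2. Likeness was the root-mean-square difference of centred log2 CPM, which was 0.54 for Ubxn11, 0.71 for Cbr2 and Anpep and 0.72 for Aim2. Slc6a8 had much closer matches, with 0.05 for the helicase gene Rtel1, 0.13 for the lysosomal gene Glmp, 0.22 for Prkag1 and 0.24 for Wdr45. Ckb was nearest to Dus3l and the proteasome receptor gene Adrm1 (0.23 each), Ruvbl2 (0.28) and the mitochondrial RNA polymerase gene Polrmt (0.31). The genes nearest to Ckb shared its high value in control 2, and those nearest to Slc6a8 its low value in control 3.

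**Figure D3:**
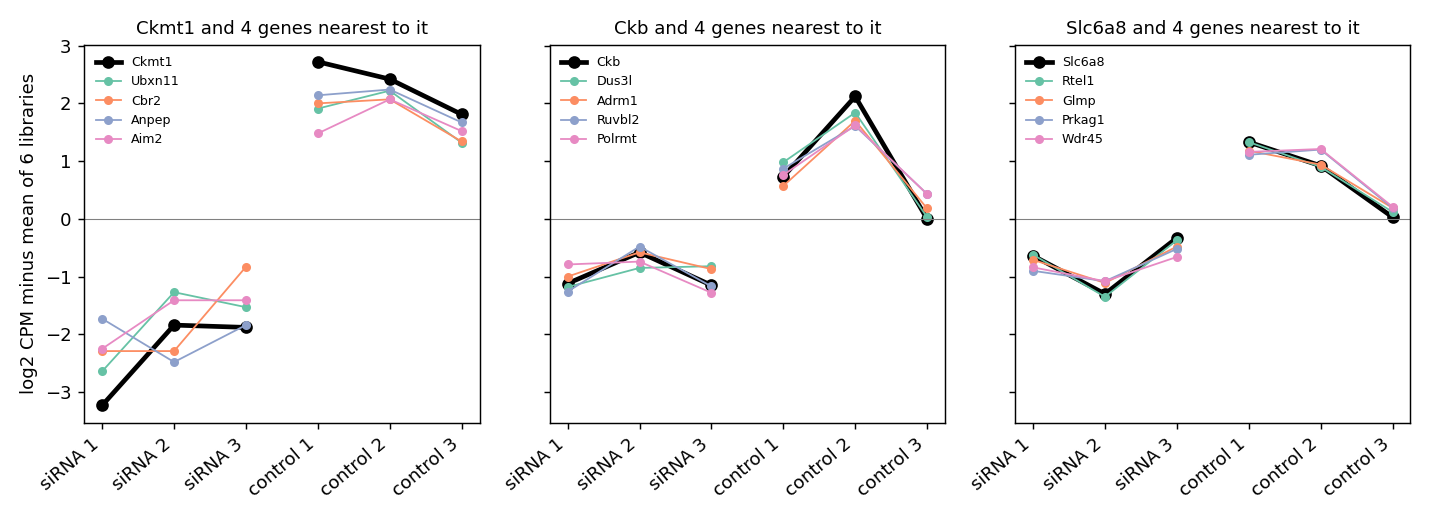
Centred log2 CPM (y axis) in 3 Son siRNA and 3 control libraries for Ckmt1, Ckb and Slc6a8 (black) and the 4 genes nearest to each (colours); lines join libraries of 1 group only to guide the eye. Ckmt1 spans from -3.23 in siRNA library 1 to 2.72 in control 1, and Ckb is highest in control 2 at 2.12.

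Genes that feed, use or neighbour the creatine route were described from 6 lists holding 66 tested genes. The lists were chosen with earlier results of these data known, so their calls and p-values are a description. Bhmt alone of the 66 fell by edgeR's test over all genes and 0 rose, beside 0.899% and 0.0899% of all tested genes, with 21 at an unadjusted p under 0.05, beside 14.7% of all tested genes. DESeq2 called 9 of the 66 lower and 0 higher, beside 4.63% and 2.28% of all tested genes. The groups did not overlap for 14 in the lower and 6 in the higher direction, against 11.6% and 12.1% of all tested genes. The median log2 fold change of the 66 was -0.38, against 0.02 for all tested genes. Scaling by total counts moved the median of all genes by 0.29, to 0.31, and that of the 66 to -0.08.

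The methyl donor cycle supplies the S-adenosylmethionine that Gamt uses, and held the Bhmt decrease. Bhmt (ENSMUSG00000074768, chromosome 13, 93616675 to 93637961) encodes betaine-homocysteine methyltransferase, which rebuilds methionine from homocysteine. It had 81.7, 105 and 83 CPM after siRNA, against 670, 497 and 399 CPM in controls. The groups lay far apart, with a log2 difference of -2.54, SE 0.256 (adjusted p = 0.0122 by edgeR). Of its 100-base stretches 41.95% also occur in Bhmt-ps1, Gm5096 or Gm15622, and Gm5096, also called lower, had 9.14, 13.3 and 9.59 CPM after siRNA against 85.4, 60.1 and 55.1 CPM in controls. Without siRNA library 1, 2 or 3 Bhmt had log2 fold changes of -2.47, -2.67 and -2.48 and was not past the threshold (edgeR adjusted p = 0.171, 0.0709 and 0.149). Mat2a, which makes S-adenosylmethionine, had 431 ± 18.5 CPM after siRNA and 777 ± 136 CPM in controls (log2 difference -0.85 with an adjusted p = 0.0918 by edgeR). Of the list's 15 tested genes 4 had an unadjusted p under 0.05 (14.7% of all tested genes) and DESeq2 called 3 lower (4.63% of all). Their median was -0.14, which was 0.17 with total counts.

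The arginine and glycine supply list holds genes that make or carry the substrates of Gatm and genes that break them down. Lower RNA across it thus has no single meaning for supply, which was not tested. Of its 17 tested genes, 15 had a log2 fold change below 0, beside 48.7% of all tested genes. Their median was -0.75, or -0.50 with total counts. By edgeR 0 of them passed, with 6 under 0.05 before adjustment (14.7% of all genes), and DESeq2 called 3 lower (4.63% of all). Psat1, an enzyme of serine synthesis, had 384, 410 and 377 CPM after siRNA, against 764, 694 and 748 CPM in controls (log2 difference -0.91 with an adjusted p = 0.0554 by edgeR). Both groups were tight and far apart by this scaling, and the Psat1 difference was -0.62 with total counts. Gcsh, a carrier protein of the glycine cleavage system, had 1890 ± 155 CPM after siRNA and 3390 ± 453 CPM in controls (log2 difference -0.84 with an adjusted p = 0.0753 by edgeR). With total counts it was -0.55. Of the transport and guanidinoacetate methylation list, 0 of 4 tested genes passed, 0 had an unadjusted p under 0.05 and 0 were called by DESeq2. Slc16a12, which encodes a creatine transporter of the monocarboxylate family, had 0.266 ± 0.0615 CPM after siRNA and 1.03 ± 0.763 CPM in controls (log2 difference -1.95 with an adjusted p = 0.343 by edgeR). Without control 2, its highest library, the difference was -1.17. The median of that list was -0.20, or 0.10 with total counts.

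Adenylate kinases are the other system that buffers ATP, and their list also held the UMP-CMP kinase genes Cmpk1 and Cmpk2. It had 0 of 10 tested genes past the threshold. In this list 3 had an unadjusted p under 0.05, with Cmpk1 (log2 difference 0.52) among them, beside 14.7% of all genes. DESeq2 called 1 lower, beside 4.63% of all. The gene that DESeq2 called was the mitochondrial form Ak4, with 17, 24.6 and 16.2 CPM after siRNA, against 70.8, 53.3 and 34.3 CPM in controls (log2 difference -1.45 with an adjusted p = 0.0858 by edgeR). Ak7 had 22.9 ± 5.32 CPM after siRNA and 41.1 ± 12.8 CPM in controls (log2 difference -0.84 with an adjusted p = 0.273 by edgeR). With total counts it was -0.52. The list median was near 0 (-0.01 with DESeq2 size factors, 0.23 with total counts).

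Genes listed as partners of mitochondrial creatine kinase, such as those of porins and ADP/ATP carriers, had 0 of 8 tested genes past the threshold. In this list 3 had an unadjusted p under 0.05, beside 14.7% of all genes, and DESeq2 called 1 lower, beside 4.63% of all. The phosphate carrier gene Slc25a3 had 111 ± 7.95 CPM after siRNA and 187 ± 27.1 CPM in controls (log2 difference -0.75 with an adjusted p = 0.128 by edgeR). With total counts it was -0.48. Ppif, which encodes cyclophilin D, had 25.3, 22.2 and 21.1 CPM after siRNA, against 5.65, 17.2 and 8.97 CPM in controls (log2 difference 1.11 with an adjusted p = 0.254 by edgeR). The list median was -0.01, or 0.27 with total counts. Of 12 tested genes of AMP-activated protein kinase and its activators, a sensor of low ATP, 0 passed by edgeR, with 5 under 0.05 before adjustment (14.7% of all genes) and 1 called lower by DESeq2 (4.63% of all). The subunit gene Prkag1, also 1 of the genes nearest to Slc6a8, had 9.89, 8.70 and 12.8 CPM after siRNA, against 39.8, 42.4 and 21 CPM in controls (log2 difference -1.72 with an adjusted p = 0.0617 by edgeR). Strada had 22.3 ± 2.41 CPM after siRNA and 39.9 ± 10.9 CPM in controls (log2 difference -0.84 with an adjusted p = 0.211 by edgeR). The list median was -0.55, or -0.27 with total counts.

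**Figure D4:**
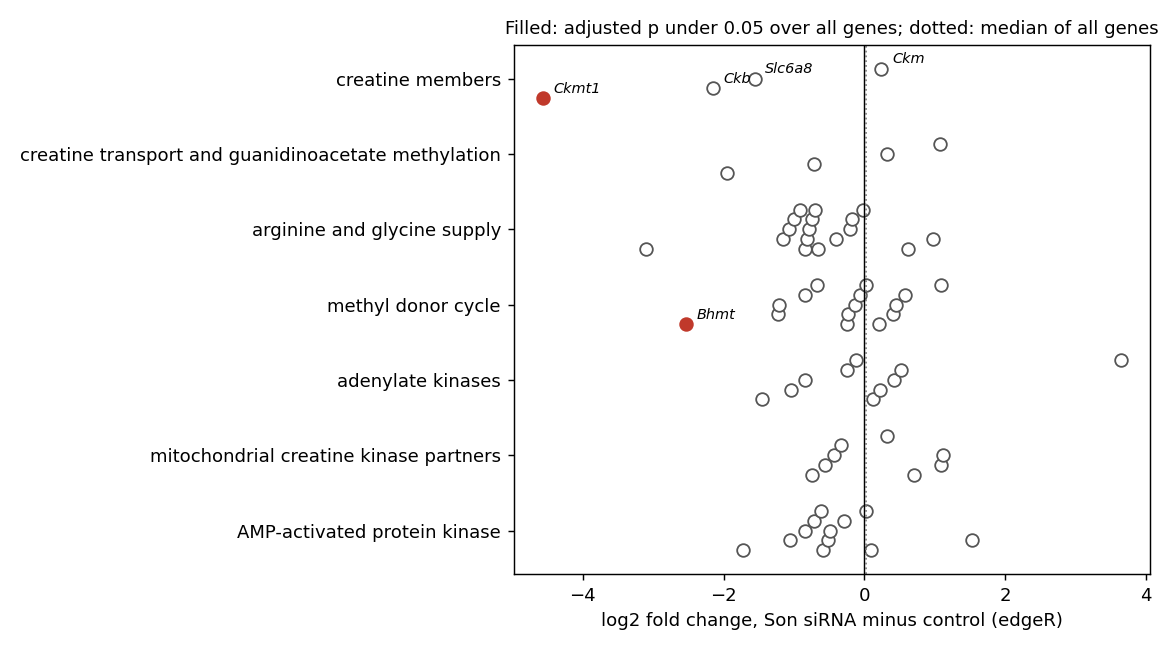
Log2 fold change of Son siRNA minus control (x axis) for the 4 tested creatine genes and the 66 tested genes of 6 related lists (rows); filled points have an adjusted p under 0.05 by edgeR over all genes, and the dotted line is the median of all tested genes, 0.02. Filled are Bhmt at -2.54 and Ckmt1 at -4.57. Ckmt1 was chosen from this comparison, and the lists were chosen with earlier results of these data known.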

How the data were processed

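RNA of 6 libraries of mouse 4-cell embryos, 3 Son siRNA and 3 control, had been sequenced with Smart-Seq2, per the labels' protocols. The authors deposited whole-number estimated counts per gene, not normalized. HISAT2 2.0.5, StringTie 1.3.3b and GRCm38 are named in the submitters' processing notes; no label or header names the annotation, counting script or filters. Counts were used as deposited; 4 units were taken as 1 read pair, an assumption from the values. Counting floors cover counting error only. GENCODE vM21 (GRCm38) matched 45223 of 46072 genes and gave lengths, exons and coordinates; StringTie can share reads among overlapping transcripts.

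Genes kept by filterByExpr (17788) were scaled with TMM and tested with edgeR 4.0.16 (glmQLFit, glmQLFTest; R 4.3.3), Son siRNA minus control, without covariates, with Benjamini-Hochberg adjustment at 0.05. The log2 CPM used for likeness had a prior count of 2. Coding sequences were aligned with MAFFT 7.526. Alternatives were other scalings and filters (none, or 50 units in 3 libraries), DESeq2 1.42.0, counts divided by 4, the replicate number as a block and leaving out each library.

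The 6 genes, the lists and the tests were chosen with earlier results of these data known. Named were Son, the 6 genes, list genes past the threshold and the 2 genes of each list with the smallest p. Also named were the 4 genes nearest to each of the 6 genes at 5 CPM or more, and some overlapping or adjacent genes.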

Additional observations from a re-analysis of the deposited data

How the results depend on the processing

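The number of genes called lower was 160, and became 35 with total counts, 91 with no filter, 245 with a filter of 50 units in 3 libraries, 279 with counts divided by 4 and 823 with DESeq2. The number called higher was 16, and became 7, 9, 43, 51 and 405 in the same order of settings. Leaving out 1 library each time gave 0 to 231 lower and 0 to 84 higher genes. Of the genes in the 6 related lists, 1 was called lower, against 3 with the stricter filter, 3 with counts divided by 4 and 9 with DESeq2, and 0 to 2 when a library was left out. With the replicate number as a block, edgeR called 0 genes lower, 0 higher and 0 of the listed genes (1997 genes at an unadjusted p under 0.05); Ckmt1 then had a log2 fold change of -4.63 and was not among the calls. Same-numbered libraries had correlations of deviations of -0.27, -0.33 and 0.02 over 6079 genes, and the other pairs -0.23 to 0.41. Deviations were taken from the mean of only 3 libraries per group. These values therefore cannot decide whether the numbers pair the libraries.

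The Ckmt1 log2 fold change ran from -4.79 to -4.24 over the settings. Ckmt1 was chosen for its decrease in these same libraries, so its steady direction is a description and no evidence. It was not called by edgeR with the replicate block or without siRNA library 1, 2 or 3. The Ckm value was 1.02 without control 1, and turned to -0.22 without control 3 and -0.20 without siRNA library 2. The causes were not tested. The genes nearest to Ckmt1, Ckb and Slc6a8 were the same 4 each with DESeq2 size factors. Levels per kilobase that used the longest coding transcript were chosen after seeing the data. Depth limits Ckmt2 and Gatm, which lay at or near the floor of 12 units.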
